A study of Mus musculus with 4 samples.

Results

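Interferon-stimulated effector genes encode the proteins with which a cell restricts viruses and other intracellular microbes once interferon has bound its receptor. The 41 genes described here were chosen by name, with earlier results of these data known. Every one of them had a row among the 21506 genes of the deposited tables. A gene with several transcripts is represented by its longest one, by exon length. Of the 41 genes, 38 reached 1 RPKM (reads per kilobase of exon, scaled to library size) in at least 2 libraries and were tested among 10310 such genes. The other members, Oasl1, Parp12 and Cxcl10, are given by level.

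Type I interferons signal through the receptor chains Ifnar1 and Ifnar2, the kinases Jak1 and Tyk2 and transcription factors that include Stat2. With Irf9, Stat2 is part of the complex ISGF3, which binds GAAA repeats near the start of its target genes. Some targets also raise the supply of the pathway itself, Stat2 and Irf9 among them, so that cells with little interferon can keep a low tone of these genes. Myeloid cells are known both as makers and as responders of interferon.

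RNA sequencing was performed on poly(A)-selected RNA of 32Dclone3 cells, a mouse myeloid line grown with serum and interleukin-3 from WEHI medium. The comparison asked how gene expression differed between cells stably infected with the XZ control virus and cells stably infected with XZ-miR-125b, which overexpresses the miRNA miR-125b. Each group had 2 libraries, made after infection with separate virus supernatants, so every library came from virus-infected cells of 1 line, and no uninfected cells were among the samples used here. Replicate numbers are those of the sample titles, and control 1 is written for control replicate 1 and so on where values are listed. The labels do not tell whether replicates also differed in day of culture, extraction or sequencing.

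The libraries held between 10.4 and 12.6 M reads summed over all table rows, and 3 reads on a transcript of 1 kb amounted to between 0.238 and 0.289 RPKM. The hairpin of Mir125b-1 (mm9 chromosome 9, 41390009 to 41390085) was at 0 reads in either control and at 4 reads in either miR-125b replicate. Kit, a progenitor receptor, was at 0 reads in 3 libraries and 1 read in the other.

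Markers of the cell's own type and of other types differed between libraries too. Of 12 myeloid progenitor genes 11 were tested, with summed levels from 1137 RPKM in control 1 to 1994 in control 2. Among them Mpo, the granule enzyme myeloperoxidase, was at 39.1 RPKM in control 1, 54.2 in control 2, 273 in miR-125b 1 and 105 in miR-125b 2 (log2 fold change 1.86 ± 0.44, SE; limma adjusted p = 0.410). With libraries left out in turn its log2 fold change ran from 1.18 to 2.54, the latter without miR-125b replicate 2. The cytokine receptor chains Csf2rb2 and Csf2rb had lower means with miR-125b, by log2 fold changes of -0.85 ± 0.27 and -0.63 ± 0.24 (SE), and Elane, a granule protease, had 0.54 ± 0.27. None of these 4 followed the order of libraries seen in the effector genes, which 2 of the 11 did, Ptprc and Sfpi1 (12.8% of all genes). Of the 11, 9 had a lower mean with miR-125b, all but Mpo and Elane, and the median log2 fold change was -0.21. The more abundant granule proteases Prtn3 and Ctsg had log2 fold changes of -0.21 and -0.07. Prtn3 was at 319 and 758 RPKM (control 1, 2) and 498 and 364 RPKM (miR-125b 1, 2).

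Of 11 macrophage markers 4 were tested. Cd68, a lysosomal protein, was at 25.97 RPKM in control 1, 39.1 in control 2, 85.2 in miR-125b 1 and 76.7 in miR-125b 2, with groups apart (log2 fold change 1.32 ± 0.24, SE; limma adjusted p = 0.333). Emr1, which encodes F4/80, was at 27.2 and 30.6 RPKM (control 1, 2) and 24.4 and 11.3 RPKM (miR-125b 1, 2). It alone of the 4 tested was highest and lowest in the same libraries as most effector genes (12.8% of all genes). Fcgr1, an antibody receptor, lay between 23.0 and 31.0 RPKM, and Marco, Mertk and C1qb were at 0 reads. The whole list summed to 79.4 RPKM in control 1, 96.5 in control 2, 142 in miR-125b 1 and 115 in miR-125b 2. Of 8 plasmacytoid dendritic cell markers 4 were tested, and the list summed to between 15.6 and 23.4 RPKM. Klk1 and Ly6d were at 0 reads throughout and Siglech had 1 read in all. Pacsin1 held 129, 305, 164 and 78 reads, and it alone of the 4 tested followed the order of the effector genes (12.8% of all genes). By RPKM, Tcf4 was highest in miR-125b replicate 1, Runx2 was lowest in miR-125b replicate 1, and Cox6a2 was highest in miR-125b replicate 2. The 10 lymphoid markers held 6 to 13 reads per library. The part of these markers in the results was not tested. In such bulk libraries fewer responding cells and less RNA per cell cannot be told apart.

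Almost all of the interferon-stimulated effector genes were highest in control replicate 2 and lowest in miR-125b replicate 2. In replicate 1 of both groups most lay close together, 86.8% of the tested members within 1.5-fold, much as 89.8% of all genes did. The members took 0.611% of reads in control replicate 1 (Wilson 95% interval 0.606 to 0.617), 1.29% in control replicate 2 (1.28 to 1.29), 0.631% in miR-125b replicate 1 (0.626 to 0.636) and 0.322% in miR-125b replicate 2 (0.319 to 0.326). These intervals cover counting error only. The median over the 38 tested members was 31.9 RPKM in control 1, 51.7 in control 2, 28.8 in miR-125b 1 and 11.6 in miR-125b 2.

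**Figure D1:**
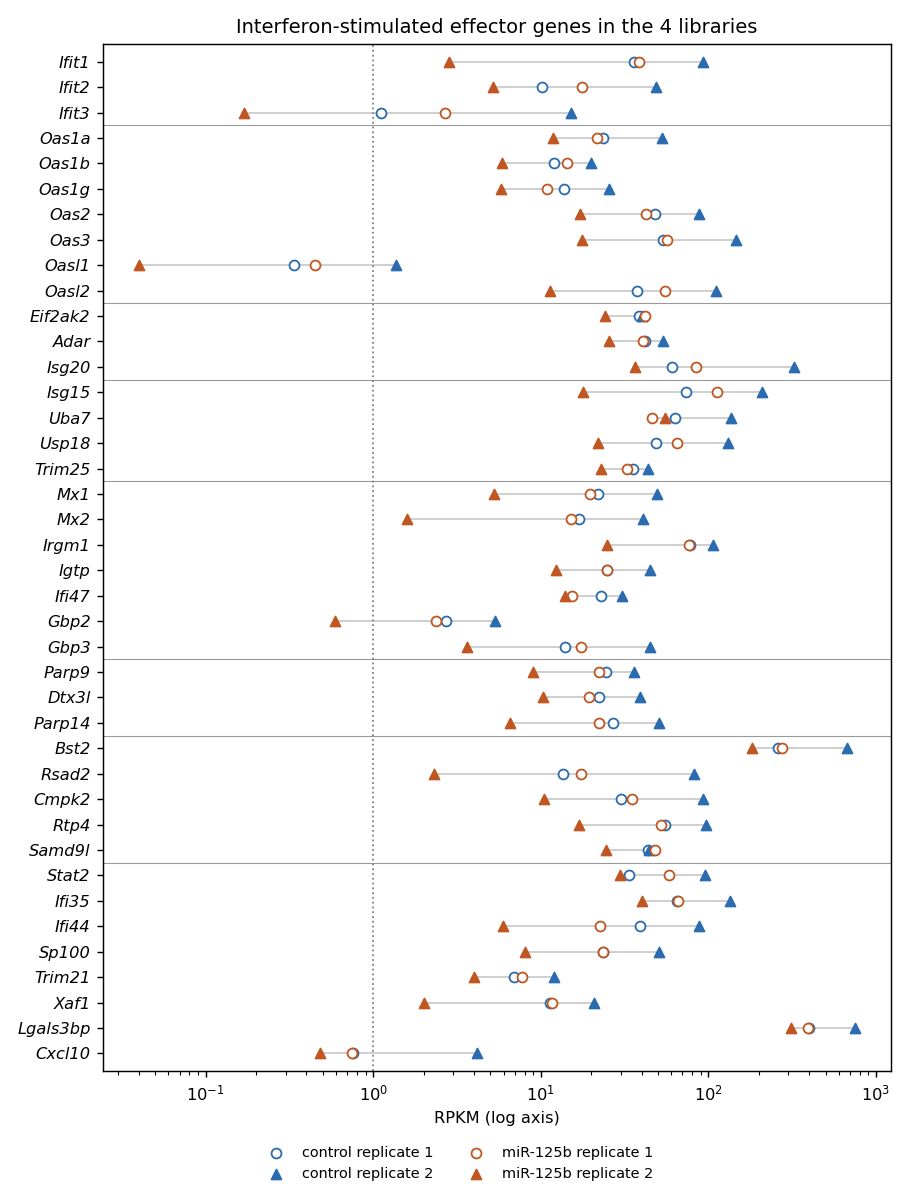
RPKM (log axis) of 40 members in each of the 4 libraries; Parp12, with 1 read in all, is left out. Blue marks are control and orange marks miR-125b libraries, open circles replicate 1 and filled triangles replicate 2, horizontal lines set off the role classes, and the dotted line marks 1 RPKM. Among the 38 tested members the blue triangle is the rightmost mark in 36 and the orange triangle the leftmost in 37.

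Control replicate 2 was the highest of the 4 libraries for 36 of 38 tested members, against 31.9% of all tested genes, and miR-125b replicate 2 was the lowest for 37, against 23.7% of all. Both held for 35 members, against 12.8% of all genes. The exceptions were Eif2ak2 and Samd9l, which were highest in miR-125b replicate 1, and Uba7, which was lowest there. Control replicate 2 was at least 2-fold above control replicate 1 for 20 members (3.67% of all genes), and miR-125b replicate 1 was at least 2-fold above miR-125b replicate 2 for 24 (1.78% of all genes). Both folds reached 2 in 15 members, against 0.601% of all genes. The ratio of the control libraries ran from 1.02 for Samd9l to 13.5 for Ifit3 with a median of 2.13, and that of the miR-125b libraries from 0.838 for Uba7 to 15.8 for Ifit3 with a median of 2.68.

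Between the groups, all 38 tested members had a lower mean of log2(RPKM + 1) with miR-125b, against 47.2% of all genes. The median log2 fold change was -1.11, and it was 0.024 over all tested genes. Single members ran from -2.25 for Ifit1 to -0.30 for Eif2ak2. In limma's moderated linear model with Benjamini-Hochberg adjustment over all 10310 genes, 0 members passed and 0 genes did (0.00%), and the members' adjusted p ran from 0.420 to 0.776. Without adjustment, p was under 0.05 for 13 lower members, against 5.21% of all genes, and for 0 higher ones, against 4.17%. With limma-voom on the recovered reads 19 members were lower at that level, against 580 of all 10310 genes, and 0 members were called. The mean was lower by at least 1 on the log2 scale in 25 members, against 1.42% of all genes.

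Both miR-125b libraries lay below both control libraries in 18 of the 38 members, against 20.4% of all genes, and above both in 0, against 22.3%. Some of these 18 were apart by very little. Their miR-125b replicate 1 minus control replicate 1 ran from -0.76 for Ifi44 to -0.00036 for Sp100 in log2(RPKM + 1). In the other 20 members the groups overlapped, and in each of these miR-125b replicate 1 was above control replicate 1. The difference of the group means was smaller than the larger of the 2 within-group differences in 33 of 38 members, against 71.7% of all genes. The standard error of the log2 fold change had a median of 0.50 over the members and 0.21 over all tested genes. With 2 libraries against 2, an exact 2-sided permutation test cannot give a p below 0.333 for a single gene.

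**Figure D2:**
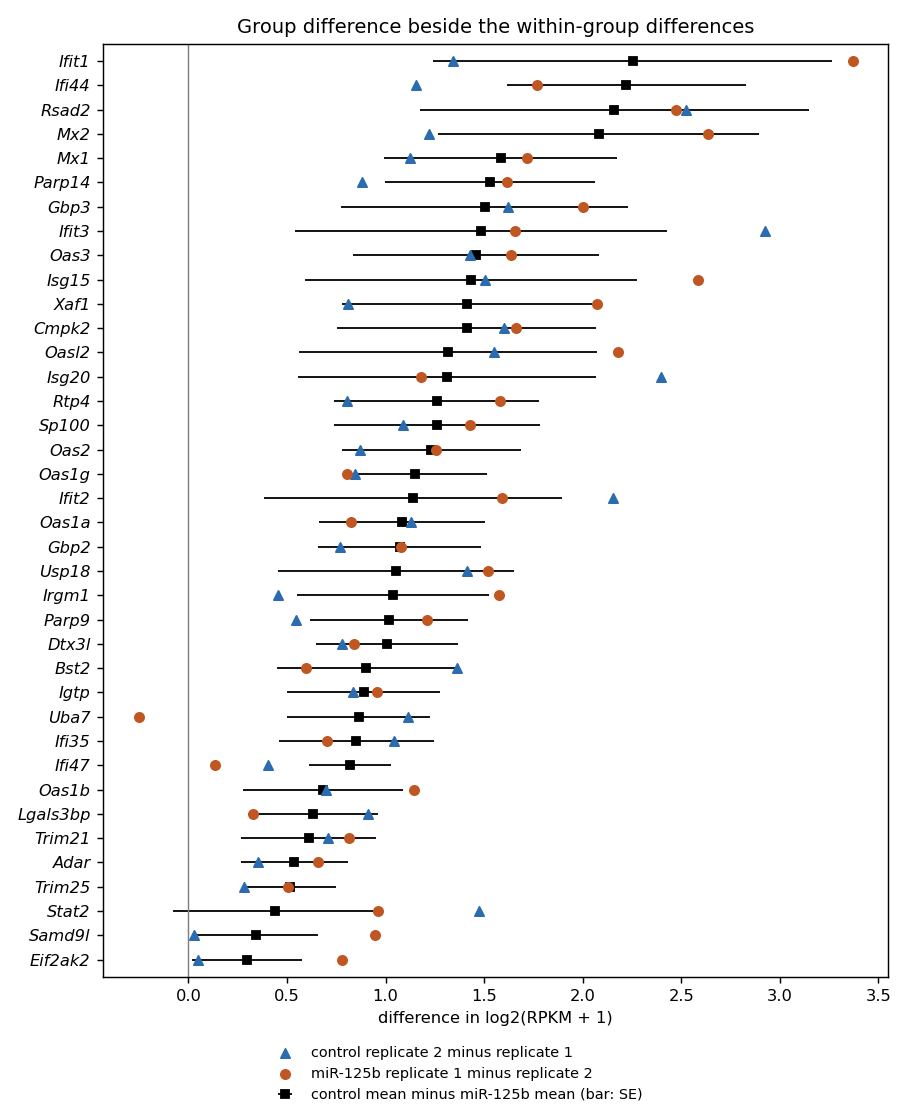
Differences in log2(RPKM + 1) for the 38 tested members, ordered by the group difference. Black squares are the control mean minus the miR-125b mean with the standard error of limma's fit, blue triangles control replicate 2 minus replicate 1, and orange circles miR-125b replicate 1 minus replicate 2. In 33 members a coloured mark lies farther from 0 than the square.

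Single libraries decided the size of the group difference. The median log2 fold change of the members was -1.66 when control replicate 1 was left out, -0.61 when control replicate 2 was, -1.82 when miR-125b replicate 1 was and -0.52 when miR-125b replicate 2 was. In each of these fits 1 library stands for a group, and its spread is taken from the other group. Counts at a p threshold are therefore left out. Of the 38 members, 37 had a lower mean with miR-125b once control replicate 2 was left out, and 35 once miR-125b replicate 2 was.

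The pairs of libraries showed the same steps. The median difference of the members was 1.07 on the log2(RPKM + 1) scale for control replicate 2 minus control replicate 1 and 1.23 for miR-125b replicate 1 minus miR-125b replicate 2. Control replicate 1 minus miR-125b replicate 1 had a median of -0.015 and was above 0 in 18 of 38 members, and 33 members lay within 1.5-fold of each other in that pair, against 89.8% of all genes. Control replicate 2 minus miR-125b replicate 2 had a median of 2.18, with single members from 0.71 to 4.66. The medians over all tested genes lay between -0.040 and 0.011 in the 6 pairs.

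**Figure D3:**
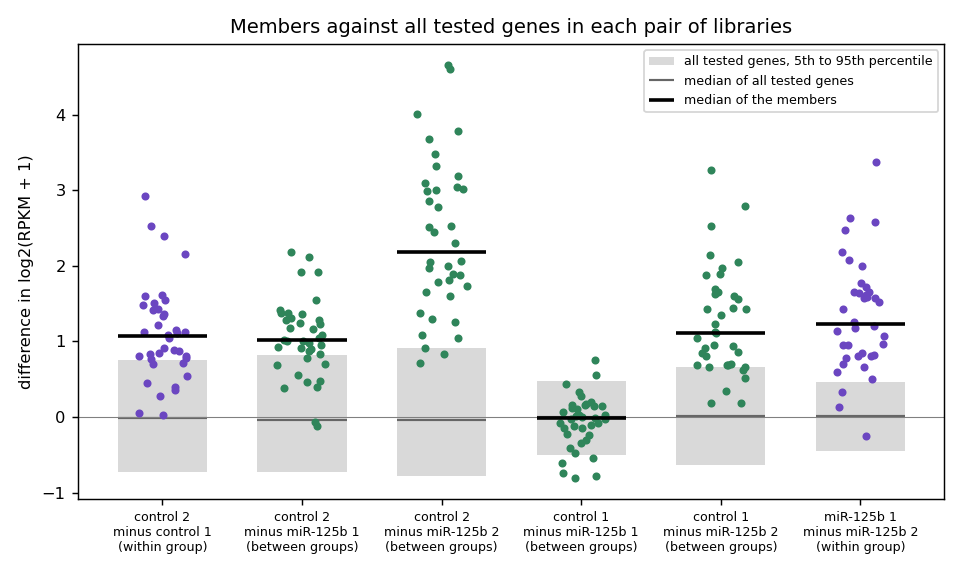
Difference in log2(RPKM + 1) between each pair of libraries. Dots are the 38 tested members (purple within a group, green between groups), black bars their median, and grey boxes and lines the 5th to 95th percentile and the median of all tested genes. The members' median is near 0 only for control replicate 1 minus miR-125b replicate 1 (-0.015) and is largest for control replicate 2 minus miR-125b replicate 2 (2.18).

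The control libraries also differed with transcript GC content, and control replicate 1 minus replicate 2 had Spearman's rho of -0.476 against GC across 10247 genes, which are not independent replicates. The members had a median GC content of 48.4%, from 38.8% to 55.8%, and all tested genes one of 50.4%. After each library's trend on GC had been removed, an analysis added after the data were seen, the members' median was 1.02 for control replicate 2 minus replicate 1 and 1.22 for miR-125b replicate 1 minus replicate 2, and the median log2 fold change between the groups was -1.14.

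The IFIT proteins, which bind foreign RNA ends and cap structures and lie side by side on chromosome 19, differed several-fold between libraries of 1 group. Ifit1 (chromosome 19, 34715379 to 34724499 in mm9, 2 exons), which binds capped RNA lacking cap methylation, was at 35.95 RPKM in control 1, 92.7 in control 2, 38.7 in miR-125b 1 and 2.84 in miR-125b 2. Control replicate 2 stood 32.6 times above miR-125b replicate 2, whereas replicate 1 of each group differed little. Ifit2 (chromosome 19, 34625184 to 34651024), a partner that binds AU-rich RNA, was at 10.2 and 48.9 RPKM (control 1, 2) and 17.6 and 5.18 RPKM (miR-125b 1, 2). Ifit3 (chromosome 19, 34658019 to 34663472), which stabilises the IFIT complex, was at 1.11 and 15.05 RPKM (control 1, 2) and 2.70 and 0.171 RPKM (miR-125b 1, 2), with 25, 312, 68 and 4 reads in that order. Ifit3 differed 13.5-fold within control and 15.8-fold within miR-125b, and the groups of all 3 genes overlapped. The log2 fold changes were -2.25 ± 1.01, -1.14 ± 0.76 and -1.49 ± 0.94 (SE) for Ifit1, Ifit2 and Ifit3, with limma's adjusted p from 0.541 to 0.642. With libraries left out in turn the fold change of Ifit3 ran from -2.95 to -0.02.

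The oligoadenylate synthetases, which answer double-stranded RNA by making the messenger that activates RNase L, had 6 tested members, 3 of them lower at an unadjusted p under 0.05 (5.21% of all genes) and 0 higher (4.17%). Oas3 (chromosome 5, 121203107 to 121227668, 16 exons), the longest enzyme of the family, was at 53.9 RPKM in control 1, 147 in control 2, 56.7 in miR-125b 1 and 17.6 in miR-125b 2. Oas2 (chromosome 5, 121180343 to 121199857) was at 47.7 and 88.1 RPKM (control 1, 2) and 42.3 and 17.1 RPKM (miR-125b 1, 2). Oas2 had groups that did not overlap, by the narrow gap between replicate 1 of each group, and Oas3 had groups that did. Their log2 fold changes were -1.23 ± 0.46 and -1.46 ± 0.62 (SE), with adjusted p of 0.505 and 0.534 in limma's test. Oasl2 (chromosome 5, 115346943 to 115362254), a synthetase with ubiquitin-like domains, was at 37.4 and 112 RPKM (control 1, 2) and 55.1 and 11.4 RPKM (miR-125b 1, 2), and its groups overlapped.

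Oas1a (chromosome 5, 121346268 to 121357534) was at 23.5 and 52.6 RPKM (control 1, 2) and 21.8 and 11.8 RPKM (miR-125b 1, 2). Oas1g (chromosome 5, 121326151 to 121337607), its close copy, was at 13.8 and 25.6 RPKM (control 1, 2) and 10.8 and 5.77 RPKM (miR-125b 1, 2). Both had groups apart, with log2 fold changes of -1.08 ± 0.42 and -1.15 ± 0.36 (SE) and adjusted p of 0.509 and 0.464 in limma's test. Their split is uncertain, since 65.7% of the 36-base words of the Oas1a transcript also occur in Oas1g. Oas1b (chromosome 5, 121262644 to 121274169), the flavivirus resistance gene of mice, was at 11.9 and 19.99 RPKM (control 1, 2) and 14.2 and 5.89 RPKM (miR-125b 1, 2), with overlapping groups. Oasl1, which restrains the translation of Irf7, had 8, 30, 12 and 1 reads and at most 1.36 RPKM, with the same order of libraries, and was not tested.

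Among the RNA-directed enzymes, the exonuclease gene Isg20 differed most and the kinase gene Eif2ak2 least. Isg20 (chromosome 7, 86058651 to 86065282), which degrades single-stranded RNA, was at 60.4 RPKM in control 1, 322 in control 2, 84.4 in miR-125b 1 and 36.7 in miR-125b 2. Control replicate 2 stood 5.33 times above control replicate 1, and the groups overlapped. Its other transcript row was at 69.8, 382, 98.0 and 41.8 RPKM in the same order, so both rows ranked the libraries alike. Adar (chromosome 3, 89518944 to 89557376, 15 exons), which edits adenosine to inosine in double-stranded RNA, was at 41.8 and 53.7 RPKM (control 1, 2) and 40.9 and 25.6 RPKM (miR-125b 1, 2). Its groups did not overlap, and its log2 fold change was -0.54 ± 0.27 (SE). Eif2ak2 (chromosome 17), the kinase PKR that halts translation, was at 38.6 and 40.01 RPKM (control 1, 2) and 41.98 and 24.03 RPKM (miR-125b 1, 2). Only miR-125b replicate 2 stood apart, and the log2 fold change of -0.30 ± 0.28 was 0.093 without it. Eif2ak2, Samd9l and Stat2 fall outside the rule for named genes and were picked once their values had been seen.

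Genes of ISG15 conjugation were lower on average with miR-125b in 4 of 4 cases, and 0 of 4 had an unadjusted p under 0.05 (5.21% of all genes lower). Isg15 (chromosome 4, 155573533 to 155574927, 2 exons), the ubiquitin-like modifier itself, was at 73.3 RPKM in control 1, 210.0 in control 2, 112 in miR-125b 1 and 17.9 in miR-125b 2. Its miR-125b libraries differed 6.27-fold and its control libraries 2.87-fold, and the groups overlapped. Usp18 (chromosome 6, 121195924 to 121220935), the protease that removes ISG15 and dampens the receptor, was at 48.5 and 131 RPKM (control 1, 2) and 64.9 and 21.99 RPKM (miR-125b 1, 2), also overlapping. Uba7 (chromosome 9, 107877898 to 107886387, 24 exons), the enzyme that activates ISG15, was at 62.8 and 137 RPKM (control 1, 2) and 46.3 and 55.3 RPKM (miR-125b 1, 2). It was the tested member with its lowest value in miR-125b replicate 1, its groups lay apart, and its log2 fold change was -0.86 ± 0.36 (SE; limma adjusted p = 0.534). Trim25, a ubiquitin ligase of the RIG-I pathway, was at 35.6 and 43.5 RPKM (control 1, 2) and 32.7 and 22.7 RPKM (miR-125b 1, 2), within a 2-fold range overall.

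The interferon-induced large GTPases were lower with miR-125b at an unadjusted p under 0.05 in 4 of 7 cases (5.21% of all genes), and their groups lay apart in 5 (20.4%). Mx1 (chromosome 16, 97668644 to 97684512), which blocks influenza virus in the nucleus, was at 22.02 RPKM in control 1, 49.2 in control 2, 19.6 in miR-125b 1 and 5.25 in miR-125b 2. Mx2 (chromosome 16, 97757688 to 97782508), its cytoplasmic relative, was at 16.8 and 40.6 RPKM (control 1, 2) and 15.05 and 1.58 RPKM (miR-125b 1, 2). In both genes replicate 1 of either group differed little, and miR-125b replicate 2 was far below the rest, 3.72-fold and 9.50-fold under miR-125b replicate 1. The log2 fold changes were -1.58 ± 0.59 and -2.08 ± 0.82 (SE), with adjusted p of 0.505 and 0.509 in limma's test. Without miR-125b replicate 2 they were -0.72 and -0.76.

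Immunity-related GTPases act on the vacuoles of intracellular pathogens. Irgm1 (chromosome 11, 48678751 to 48684848), a regulator of the family, was at 77.6 and 107 RPKM (control 1, 2) and 76.5 and 24.95 RPKM (miR-125b 1, 2). Igtp (chromosome 11, 58013058 to 58021093) was at 24.7 and 44.9 RPKM (control 1, 2) and 24.8 and 12.3 RPKM (miR-125b 1, 2), and Ifi47 (chromosome 11, 48900557 to 48910473) at 23.00 and 30.7 RPKM (control 1, 2) and 15.4 and 13.9 RPKM (miR-125b 1, 2). Ifi47 was the member with the smallest unadjusted p (0.0062) and differed little within a group, and its log2 fold change was -0.82 ± 0.21 (SE; limma adjusted p = 0.420). The groups were apart in Irgm1 and Ifi47 and touched in Igtp. Of the guanylate-binding proteins of chromosome 3, Gbp3 was at 13.9 and 44.9 RPKM (control 1, 2) and 17.5 and 3.62 RPKM (miR-125b 1, 2) and Gbp2 at 2.72 and 5.34 RPKM (control 1, 2) and 2.36 and 0.590 RPKM (miR-125b 1, 2). Gbp2 had 75, 136, 73 and 17 reads, so that its lowest value rests on few reads.

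Of the ADP-ribosylation genes 3 of 3 tested were lower at an unadjusted p under 0.05 (5.21% of all genes), and all 3 had groups apart (20.4%). Parp9 and Dtx3l, which form a complex of a poly(ADP-ribose) polymerase family protein and a ubiquitin ligase, start next to each other on chromosome 16 on opposite strands. Parp9 (chromosome 16, 35938556 to 35972691) was at 24.5 RPKM in control 1, 36.2 in control 2, 22.1 in miR-125b 1 and 9.01 in miR-125b 2, and Dtx3l (chromosome 16, 35926601 to 35939113) at 22.3 and 38.95 RPKM (control 1, 2) and 19.3 and 10.3 RPKM (miR-125b 1, 2). Parp14 (chromosome 16, 35832964 to 35871468), which adds single ADP-ribose units, was at 27.1 and 50.7 RPKM (control 1, 2) and 22.1 and 6.55 RPKM (miR-125b 1, 2). In each the gap between the groups was that between control replicate 1 and miR-125b replicate 1, smaller than either within-group gap. The log2 fold changes were -1.02 ± 0.40, -1.01 ± 0.36 and -1.53 ± 0.53 (SE) for Parp9, Dtx3l and Parp14, with adjusted p from 0.488 to 0.512 in limma's test. Parp12, another member of the family, had 1 read in miR-125b replicate 2 and 0 in the others, which allows up to 3 reads in each of those.

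Of the 5 genes for virus-restricting membrane and enzyme proteins 1 was lower at an unadjusted p under 0.05 (5.21% of all genes). Bst2 (chromosome 8, 74058161 to 74061336), the tetherin that holds budding virions at the cell surface, was the most abundant of them, at 259 RPKM in control 1, 668 in control 2, 274 in miR-125b 1 and 181 in miR-125b 2. Rsad2 (chromosome 12, 27127608 to 27141317), the radical enzyme viperin, was at 13.5 and 82.3 RPKM (control 1, 2) and 17.3 and 2.30 RPKM (miR-125b 1, 2). Its neighbour Cmpk2 (chromosome 12, 27154080 to 27164702), a nucleotide kinase, was at 30.1 and 93.2 RPKM (control 1, 2) and 35.2 and 10.4 RPKM (miR-125b 1, 2). In all 3 the groups overlapped, control replicate 2 was alone at the top, and Rsad2 differed 6.10-fold within control and 7.55-fold within miR-125b. Rtp4 (chromosome 16, 23610005 to 23614306), a receptor transporter protein, was the gene with the unadjusted p under 0.05, at 54.8 and 96.4 RPKM (control 1, 2) and 52.3 and 16.8 RPKM (miR-125b 1, 2) and with a log2 fold change of -1.26 ± 0.52 (SE; limma adjusted p = 0.527). Samd9l, a restriction factor of myeloid cells, was at 43.6 and 44.4 RPKM (control 1, 2) and 48.3 and 24.5 RPKM (miR-125b 1, 2). Like Eif2ak2 it was low in miR-125b replicate 2 only, and its log2 fold change of -0.34 ± 0.32 was 0.13 without that library.

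Among the signalling, nuclear and secreted members, Ifi44 and Sp100 had an unadjusted p under 0.05. Ifi44 (chromosome 3, 151393887 to 151412923), a cytoplasmic protein of the interferon response, was at 38.9 RPKM in control 1, 87.8 in control 2, 22.5 in miR-125b 1 and 5.92 in miR-125b 2. Its log2 fold change was -2.22 ± 0.61 (SE; limma adjusted p = 0.439) and ran from -3.10 to -1.34 with libraries left out in turn. Sp100 (chromosome 1, 87546625 to 87606023), a protein of PML nuclear bodies, was at 23.4 and 50.9 RPKM (control 1, 2) and 23.4 and 8.06 RPKM (miR-125b 1, 2), with replicate 1 of the groups nearly equal. Lgals3bp (chromosome 11, 118254066 to 118263245), the secreted galectin-3 binding protein, had the highest mean of all members, at 397 and 746 RPKM (control 1, 2) and 394 and 313 RPKM (miR-125b 1, 2), and control replicate 2 was alone in being high.

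Stat2 (chromosome 10, 127707632 to 127729905, 24 exons), the subunit that gives ISGF3 its activation domain, was at 33.7 and 95.5 RPKM (control 1, 2) and 58.6 and 29.6 RPKM (miR-125b 1, 2). The second highest value was that of miR-125b replicate 1, and the log2 fold change of -0.44 ± 0.52 (SE) was 0.30 without control replicate 2 and turned to 0.042 when miR-125b replicate 2 was left out, so its direction rested on single libraries. Ifi35 was at 64.7 and 134 RPKM (control 1, 2) and 65.7 and 39.9 RPKM (miR-125b 1, 2), with replicate 1 of the groups alike. Xaf1, which binds the apoptosis inhibitor XIAP, was at 11.4 and 20.7 RPKM (control 1, 2) and 11.6 and 2.00 RPKM (miR-125b 1, 2), and Trim21, a cytosolic antibody receptor with ligase activity, at 6.90 and 11.9 RPKM (control 1, 2) and 7.77 and 3.99 RPKM (miR-125b 1, 2). The groups of these 3 overlapped. Cxcl10, a chemokine that attracts lymphocytes, had 9, 46, 10 and 6 reads, reached 1 RPKM in control replicate 2 alone (4.17 RPKM) and was not tested.

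Transcripts of the interferons themselves were nearly absent. Of 19 interferon genes 14 had 0 reads in every library, and the list held 3 and 35 reads in control and 7 and 3 with miR-125b. Ifnb1, which encodes interferon beta, had 21 reads in control replicate 2 (exact Poisson 95% interval 13.0 to 32.1) and 1 read in each of the other libraries (0.025 to 5.57). Ifna4 had 11 reads in control replicate 2 (5.49 to 19.7), 2 and 4 in replicate 1 of control and miR-125b, and 0 in miR-125b replicate 2. The library with most reads for both was thus the one in which the effector genes were highest. Ifna2 and Ifna11 had 2 and 1 reads, in control replicate 2 only, whereas Ifnz had 0 reads in either control and 2 in each miR-125b library. Whether these few reads bear on the effector genes was not tested. None of these genes reached the level for testing.

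The receptors did not share the order of libraries seen in the effector genes. Ifnar1 was at 4.56 and 4.27 RPKM (control 1, 2) and 5.02 and 5.26 RPKM (miR-125b 1, 2), and Ifnar2 at 12.8 and 15.9 RPKM (control 1, 2) and 13.6 and 13.7 RPKM (miR-125b 1, 2). Both receptor chains thus stayed within a narrow range over the 4 libraries, while Ifnlr1, the receptor chain for interferon lambda, listed as Il28ra, was at 0 reads. Of 10 tested receptor and transducer genes, 0 passed over all genes, and 1 was lower and 1 was higher at an unadjusted p under 0.05. Over all genes these shares were 5.21% and 4.17%, so counts of 1 in so short a list are no result about it.

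Irf9, the DNA-binding subunit of ISGF3, was at 32.8 and 43.5 RPKM (control 1, 2) and 32.6 and 17.4 RPKM (miR-125b 1, 2). Irf9 and Tyk2 both followed the order of the effector genes at its ends, with control replicate 2 highest and miR-125b replicate 2 lowest. Of all genes, 12.8% did. Tyk2, the kinase bound to Ifnar1, was the lower gene at an unadjusted p under 0.05, at 15.02 and 21.8 RPKM (control 1, 2) and 10.98 and 10.5 RPKM (miR-125b 1, 2), and had a log2 fold change of -0.70 ± 0.22 (SE; limma adjusted p = 0.464). Ifngr2, a chain of the interferon gamma receptor, was the higher one, at 11.8 and 11.9 RPKM (control 1, 2) and 16.3 and 18.4 RPKM (miR-125b 1, 2) (log2 fold change 0.51 ± 0.18, SE), and Jak1 was at 45.4 and 42.5 RPKM (control 1, 2) and 53.7 and 62.8 RPKM (miR-125b 1, 2).

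**Figure D4:**
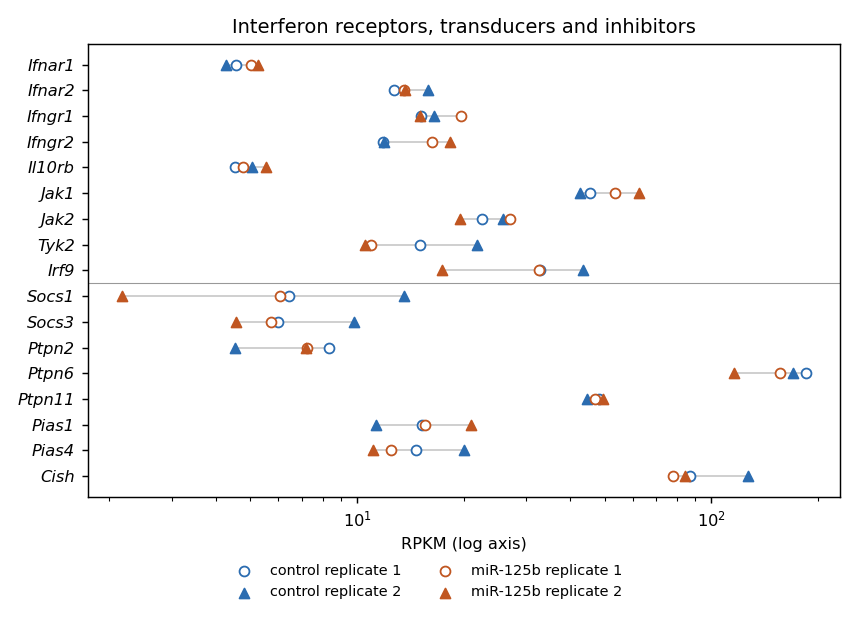
RPKM (log axis) of tested interferon receptor and transducer genes (above the line) and 8 inhibitors of the pathway (below it) in each library, with marks as in the plot of the members. Irf9 runs from 17.4 RPKM in miR-125b replicate 2 to 43.5 in control replicate 2, whereas Ifnar1 lies between 4.27 and 5.26 RPKM.

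Of 8 inhibitors of interferon signalling, 2 were lower (5.21% of all genes) and 0 were higher (4.17%) at an unadjusted p under 0.05, with 0 called over all genes. Socs1, the feedback inhibitor of JAK kinases, was at 6.43 and 13.6 RPKM (control 1, 2) and 6.04 and 2.17 RPKM (miR-125b 1, 2), in the order of the effector genes, and its log2 fold change was -1.14 ± 0.45 (SE; limma adjusted p = 0.509). Pias4, a SUMO ligase, was at 14.7 and 20.1 RPKM (control 1, 2) and 12.4 and 11.1 RPKM (miR-125b 1, 2), Socs3 at 5.99 and 9.81 RPKM (control 1, 2) and 5.71 and 4.54 RPKM (miR-125b 1, 2), and Pias1, a relative of Pias4, at 15.3 and 11.3 RPKM (control 1, 2) and 15.5 and 21.00 RPKM (miR-125b 1, 2). Control replicate 2 was highest and miR-125b replicate 2 lowest in 3 of the 8, Socs1, Pias4 and Socs3, against 12.8% of all genes.

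Most further interferon-stimulated genes outside the 41 showed the same order of libraries. Of 64 listed genes 59 were in the tables and 50 were tested. Control replicate 2 was highest and miR-125b replicate 2 lowest in 38 of the 50, against 12.8% of all genes. The median log2 fold change was -0.65, 13 genes were lower (5.21% of all genes) and 0 higher (4.17%) at an unadjusted p under 0.05, and 0 passed over all genes. The 4 with the smallest p were Tgtp1, Apol9a, H28 and Irgm2. Tgtp1, a GTPase gene, was at 1.87 and 2.81 RPKM (control 1, 2) and 0.846 and 0.243 RPKM (miR-125b 1, 2). Apol9a, an apolipoprotein L gene, was at 22.6 and 41.7 RPKM (control 1, 2) and 14.5 and 7.20 RPKM (miR-125b 1, 2). H28, the mouse relative of human IFI44L, was at 9.83 and 44.4 RPKM (control 1, 2) and 6.79 and 1.64 RPKM (miR-125b 1, 2), and Irgm2, an immunity-related GTPase, at 11.6 and 19.1 RPKM (control 1, 2) and 9.46 and 5.17 RPKM (miR-125b 1, 2). Their log2 fold changes were -1.13 ± 0.29, -1.496 ± 0.38, -2.29 ± 0.73 and -0.99 ± 0.33 (SE) in that order, with adjusted p from 0.420 to 0.473 in limma's test.

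Promoter sequence was examined for motifs of interferon signalling. The members were chosen by name as interferon-stimulated genes, so a high share of such motifs follows from that choice. Whether the motifs bear on the differences between libraries was not tested. RefSeq promoter windows (GRCm38.p6, 250 bases before to 50 after the annotated start) were matched by symbol for 33 of the 41 members. The core repeat of interferon-stimulated response elements, GAAA then any 2 bases then GAAA on either strand, where overlapping matches were all counted, occurred in 16 of these 33 members (48.5%) and in 3.99% of 27025 genes with such a window. The STAT dimer motif TTCNNNGAA, which is its own reverse complement, occurred in 8 of 33 (24.2%) and in 9.55% of genes. The stretches listed here show the repeats upstream of the start in members from several classes, printed in the direction of transcription with the matches in capitals (TTTC where the match is on the reverse strand).
Isg15, chr4:156200860-156200911, minus strand: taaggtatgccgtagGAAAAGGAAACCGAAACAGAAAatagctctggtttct
Ifit1, chr19:34640770-34640828, plus strand: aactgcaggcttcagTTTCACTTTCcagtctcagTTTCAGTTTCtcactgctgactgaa
Ifit3, chr19:34583392-34583431, plus strand: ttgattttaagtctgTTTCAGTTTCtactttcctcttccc
Oas1a, chr5:120907526-120907560, minus strand: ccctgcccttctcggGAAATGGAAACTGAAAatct
Oas1g, chr5:120887614-120887646, minus strand: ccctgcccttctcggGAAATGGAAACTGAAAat
Oas3, chr5:120777710-120777749, minus strand: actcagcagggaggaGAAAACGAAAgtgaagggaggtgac
Bst2, chr8:71537572-71537617, minus strand: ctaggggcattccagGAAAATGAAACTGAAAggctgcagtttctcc
Gbp3, chr3:142559984-142560029, plus strand: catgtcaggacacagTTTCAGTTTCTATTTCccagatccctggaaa
Irgm1, chr11:48871421-48871465, minus strand: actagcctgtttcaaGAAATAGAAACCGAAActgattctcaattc
Igtp, chr11:58199507-58199546, plus strand: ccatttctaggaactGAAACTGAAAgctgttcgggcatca
Rsad2, chr12:26456548-26456587, minus strand: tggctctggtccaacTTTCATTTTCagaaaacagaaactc
Cxcl10, chr5:92349078-92349117, minus strand: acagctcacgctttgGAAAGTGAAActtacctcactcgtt

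Isg15 held 3 overlapping matches, beginning 78, 72 and 66 bases before the start, and Oas1a, Oas1g, Bst2, Gbp3 and Irgm1 held 2 overlapping ones each. Ifit1 held 2 separate matches on the reverse strand, 104 and 85 bases before the start, and Ifit3 2 at 156 and 122, of which the nearer one is shown. In Eif2ak2 and Trim21 the matches lay after the start only. The 15 tested members with a match had a median log2 fold change of -1.08 and a median of 1.34 for control replicate 2 minus replicate 1. The 15 tested members with a window and no match had -1.01 and 1.04. A match of letters is no evidence of binding, and its absence says only that these letters are not in this window.

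**Figure D5:**
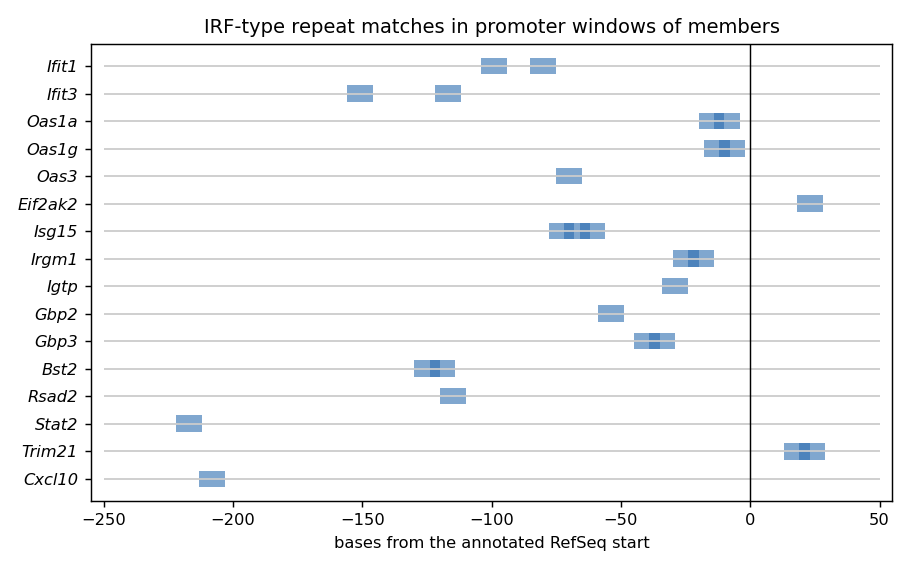
Positions of the GAAA repeat (spaced by 2 bases, either strand) in the promoter windows of the 16 members that hold it, in bases from the annotated RefSeq start (vertical line). Darker stretches are overlapping matches. In 14 of the 16 members the matches lie before the start, and in Eif2ak2 and Trim21 after it.

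Sites that match bases 2 to 8 of miR-125b occurred in the members at about the share seen in other genes. The mature miRNA is shown with its seed, bases 2 to 8, in capitals, followed by the stretches of the 3′ UTRs of members that hold the matching letters CTCAGGG in capitals, taken from the GENCODE M21 transcript of the tabled row.
miR-125b-5p: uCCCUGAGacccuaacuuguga
Rsad2: gaggtctaatgCTCAGGGatatatgt
Parp14: gatttggttaaCTCAGGGcaaggctg
Igtp: attcaggctgcCTCAGGGtctttttg
Oas1a: tggcctgtgctCTCAGGGtgcccttg
Oas1g: tggcctgtgctCTCAGGGtgcccttg

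These 5 genes were all that held such a site among 37 tested members with an annotated 3′ UTR (13.5%), while 14.2% of 9862 tested genes did. Only that of Rsad2 was followed by A, as in an 8mer site. Oas1a and Oas1g shared the same letters. The 5 genes had a median log2 fold change of -1.15, and the 32 tested members with a 3′ UTR and without CTCAGGG -1.06. Only this match was counted as a site. Adar and Mx1, placed among those without it, each held 1 shorter match, TCAGGG followed by A. Members with a site also differed within groups, by a median of 0.88 within control and 0.96 within miR-125b.

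Several rows share sequence with other genes, which can lose or divide reads. Of the 36-base words of Ifit3, 58.5% occur in Ifit3b, and of those of Igtp 15.2% in Irgm2. Mx1 and Mx2 share 7.22% and 9.91% of their words with each other. Parp9 and Dtx3l overlap by 334 bases of exon on opposite strands, Ifi47 shares 90 bases of exon with Olfr56, and Uba7 shares 194 with Cdh29. The labels do not tell whether counting used the strand. Oas2, Usp18 and Cmpk2, with 0 shared words, ranked the libraries in the same way at their ends, with control replicate 2 highest and miR-125b replicate 2 lowest.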

How the data were processed

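RNA sequencing values of 4 libraries were used, 2 of the control virus and 2 of miR-125b, grouped by their titles. The deposited tables give RPKM per transcript on mm9, the build in the submitters' processing notes; aligner, counter and annotation version: not given in the sources used here. Multiplied by exon length, RPKM came in whole steps in 100% of rows (tolerance 0.001 reads), so reads were recovered; totals were 10.4 to 12.6 M per library, and the labels' protocols state 2 infections for each condition. P-values measure the spread between such libraries, with each gene's variance drawn by limma toward a trend over all genes. The fit had 2 residual and 4.63 prior degrees of freedom. For genes that differed widely within groups, the SE is thus smaller than their own libraries alone would give.

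From these values log2(RPKM + 1) was tested with limma 3.58.1 (R 4.3.3; trended moderation, Benjamini-Hochberg adjustment, threshold 0.05) over 10310 genes with at least 1 RPKM in 2 or more libraries, and the fit was tested on simulated data. A fold change on this scale understates the change of low genes. Values are given for members with an unadjusted p under 0.05 or a log2 fold change of at least 0.5 in size, and for the 2 of highest mean in each class; outside the members, for up to 4 genes a list by smallest p. Of the cell type markers, those of high level or named for their order were picked once their values were known. The members and lists were chosen with earlier results of these data known. Promoters and the miRNA are from RefSeq (GRCm38.p6), and 3′ UTRs and GC content from GENCODE M21 (GRCm38), matched by name or transcript; no coordinates were converted. A gene of the pathway is not reported here and is left out of the plots. Alternatives were a pseudocount of 0.1, no filter, a mean of at least 5 RPKM, quantile normalization, median-of-ratios scaling, limma-voom, another transcript row, the replicate block, each library left out and, added after the data were seen, a GC adjustment.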

Additional observations from a re-analysis of the deposited data

How the results depend on the processing

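Under a pseudocount of 0.1, a mean of at least 5 RPKM, quantile normalization, median-of-ratios scaling, limma-voom, another transcript row and the GC adjustment, the counts called and the members' median kept their direction and stayed within 1.5 times of the reported values. The count of members lower at an unadjusted p under 0.05 was 3 with no filter on low values, against 593 of 14601 genes. With each library left out in turn, genes called ran from 0 to 91, members called from 0 to 22, members lower at an unadjusted p under 0.05 from 1 to 34, members with groups apart from 18 to 38 (lower) and 0 to 2 (higher), and the members' median log2 fold change from -1.82 to -0.52. Genes called were 1 without control replicate 2, 25 without miR-125b replicate 2, and highest when miR-125b replicate 1 was left out; the cause was not tested. In these fits 1 library stands for a group, so groups lie apart more easily than with 2 libraries against 2. The share of all genes with groups apart was not counted in them. No conclusion about the members is therefore drawn from the range of 18 to 38 or of 0 to 2. The direction turned for Eif2ak2 (-0.69 to 0.093), Samd9l (-0.82 to 0.13) and Stat2 (-1.18 to 0.30, and 0.042 without miR-125b replicate 2).

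The replicate deviations of the groups correlated at 0.021 across 10310 genes. That value cannot show whether replicates of the same number were handled together, which the labels do not tell. With the replicate block 12 genes were called, 0 of them members, and 21 members were lower at an unadjusted p under 0.05. With the GC adjustment and the block together 0 genes were called and 10 members were lower. Members with few reads, such as Oasl1, Cxcl10 and Parp12, were below the level for testing.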
